A study of Mus musculus with 43 samples.

Results

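The genes described here encode the subunits of respiratory complexes II, III and IV, the electron carrier cytochrome c, and the mitochondrial-encoded subunits of the ATP synthase. A fixed list of 31 mouse gene symbols was matched to the Ensembl gene rows of the deposited tables, and 31 of 55804 gene rows were kept. Complex II has 4 members (Sdha, Sdhb, Sdhc, Sdhd) and complex III has 10 (mt-Cytb, Uqcrc1, Uqcrc2, Uqcrfs1, Uqcrb, Uqcrh, Uqcrq, Uqcr10, Uqcr11, Cyc1). Cytochrome c is Cycs. Complex IV has 14 members, of which mt-Co1, mt-Co2 and mt-Co3 are mitochondrial-encoded and Cox4i1, Cox5a, Cox5b, Cox6a1, Cox6b1, Cox6c, Cox7a2, Cox7a2l, Cox7b, Cox7c and Cox8a are nuclear. The ATP synthase members are mt-Atp6 and mt-Atp8. In all, 6 members lie on the mitochondrial genome and 25 in the nucleus, and all 31 passed the filter on low values in both tables.

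RNA was measured in tissue labelled as brain, from 2 mouse lines that model Alzheimer's disease. The compound tested was CDDO-2P-Im (2P-Im here), an oleanane triterpenoid made to induce NRF2, a transcription factor of the response to oxidative stress. In the AppNLGF table, 4 libraries came from 6-month-old wild-type mice given vehicle, 11 from AppNL-G-F/NL-G-F knock-in mice of that age given vehicle, and 13 from such knock-in mice given 2P-Im for 4 weeks. In the APP/TAU table, 5 libraries came from 11-month-old wild-type mice given vehicle, 5 from APPV717I::TAUP301L mice of that age given vehicle, and 5 from such mice given 2P-Im for 2 weeks. The compound was given by mouth at 30 µmol per kg on 3 days a week in a vehicle of DMSO, Cremophor EL and PBS with 10% DMSO, and both models received their vehicle on the same schedule. No wild-type mice were given 2P-Im, so each effect of the compound was measured within a model. The knock-in mice make the mutant amyloid precursor from the mouse gene's own locus; the sources used here name neither the promoters of the APPV717I and TAUP301L transgenes nor the sex of the mice or the brain region. The labels number the libraries without tying them to animals, so a p-value reflects library-to-library spread, which may be technical.

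The respiratory chain sits in the inner mitochondrial membrane. Complex II (succinate dehydrogenase) passes electrons from the citric acid cycle to ubiquinone, complex III passes them on to cytochrome c, and complex IV (cytochrome c oxidase) hands them to oxygen, while the proton gradient that complexes III and IV build drives the ATP synthase. The catalytic cores of complexes III and IV are partly made inside mitochondria from mitochondrial transcripts, and all other subunits are made in the cytosol and imported, so each of these complexes needs both genomes. Complex II is built from nuclear genes alone. Neurons depend on this chain for most of their ATP.

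Several members have near-identical copies elsewhere in the genome, and these matter for reading their values. The stretch below is bases 445 to 544 of mt-Co2, the complex IV subunit that receives electrons from cytochrome c, which lies on the plus strand of chrM:7013-7696 in GRCm38 as a single exon. It is set beside the same stretch of Gm28661, a pseudogene on the minus strand of chr1:24614885-24615565, and of Gm13341, a pseudogene at chr2:22587291-22587962. Capitals in the last line mark the bases that differ from mt-Co2.
mt-Co2: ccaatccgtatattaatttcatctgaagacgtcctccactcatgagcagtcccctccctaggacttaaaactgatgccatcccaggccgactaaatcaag
Gm28661: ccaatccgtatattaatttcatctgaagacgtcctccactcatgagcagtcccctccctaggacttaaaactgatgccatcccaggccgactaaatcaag
Gm13341: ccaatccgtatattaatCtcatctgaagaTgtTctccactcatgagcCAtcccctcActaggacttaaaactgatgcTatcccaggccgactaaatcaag
Over their full alignment Gm28661 matched mt-Co2 at all 681 bases, and Gm13341 differed at 16 of 672. A read from the shared sequence cannot be placed in one of the first pair by its letters, so the split of TPM between mt-Co2 and Gm28661 is an estimate of the authors' quantification.

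The 2 ATP synthase members overlap on the mitochondrial genome, with mt-Atp8 at chrM:7766-7969 and mt-Atp6 at chrM:7927-8607, both on the plus strand. Capitals mark the 43 shared bases in the last 90 bases of mt-Atp8 and the first 90 of mt-Atp6.
mt-Atp8: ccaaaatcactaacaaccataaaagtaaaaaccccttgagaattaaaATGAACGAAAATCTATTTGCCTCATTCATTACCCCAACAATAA
mt-Atp6: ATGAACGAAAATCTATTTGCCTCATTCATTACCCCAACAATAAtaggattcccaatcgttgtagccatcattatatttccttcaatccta
The genes are known to be transcribed together and to stay on one messenger RNA. The shared part is 43 of 204 bases in mt-Atp8 and of 681 in mt-Atp6. A read from those 43 bases alone cannot be placed in one of the 2 by its letters, while the rest of each differs. The nuclear member with the largest genotype difference between the models after scaling, Cox7c, which encodes a small complex IV subunit and lies on the minus strand of chr13:86044816-86046904, has a copy as well. The first 60 coding bases are shown, with the start codon in capitals.
Cox7c: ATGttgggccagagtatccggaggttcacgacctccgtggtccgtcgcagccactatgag
Gm12338: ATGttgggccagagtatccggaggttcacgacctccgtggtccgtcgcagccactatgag
Gm12338, on the minus strand of chr11:75599763-75599954, matched the Cox7c transcript at all 192 of its bases.

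Copies were searched among the annotated transcripts at 95% identity over at least 100 bases. Of the 31 members, 14 had a copy (10 nuclear, 4 mitochondrial), and for 8 a copy reached an average of at least 10 TPM in either table. These were mt-Co1, mt-Co2, mt-Co3, mt-Atp6, Cycs, Uqcr11, Cox7c and Cox6c, the last through 124 bases inside another gene. Of the copies of mitochondrial members, Gm28437, Gm10925, Gm28661 and Gm29216 (a copy of mt-Co1) lie in a block on chr1 between 24613189 and 24616197, and those on chr2 averaged about 1 TPM. Gm28661 averaged 7600 TPM over the AppNLGF libraries and 7147 TPM over the APP/TAU ones, above mt-Co2 itself in every group. Gm28437, which matched mt-Co3 at all 783 aligned bases, averaged 5776, 5578 and 5778 TPM in wild-type, vehicle and 2P-Im libraries of the AppNLGF table and 5632, 5443 and 5514 TPM in those of the APP/TAU table. Gm10925 matched mt-Atp6 at all 678 aligned bases but averaged only 10.2 and 15.4 TPM in the tables. The share of the sum of mt-Co2 and Gm28661 that was given to mt-Co2 ranged from 4.30 to 20.3% over the libraries.

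**Figure D1:**
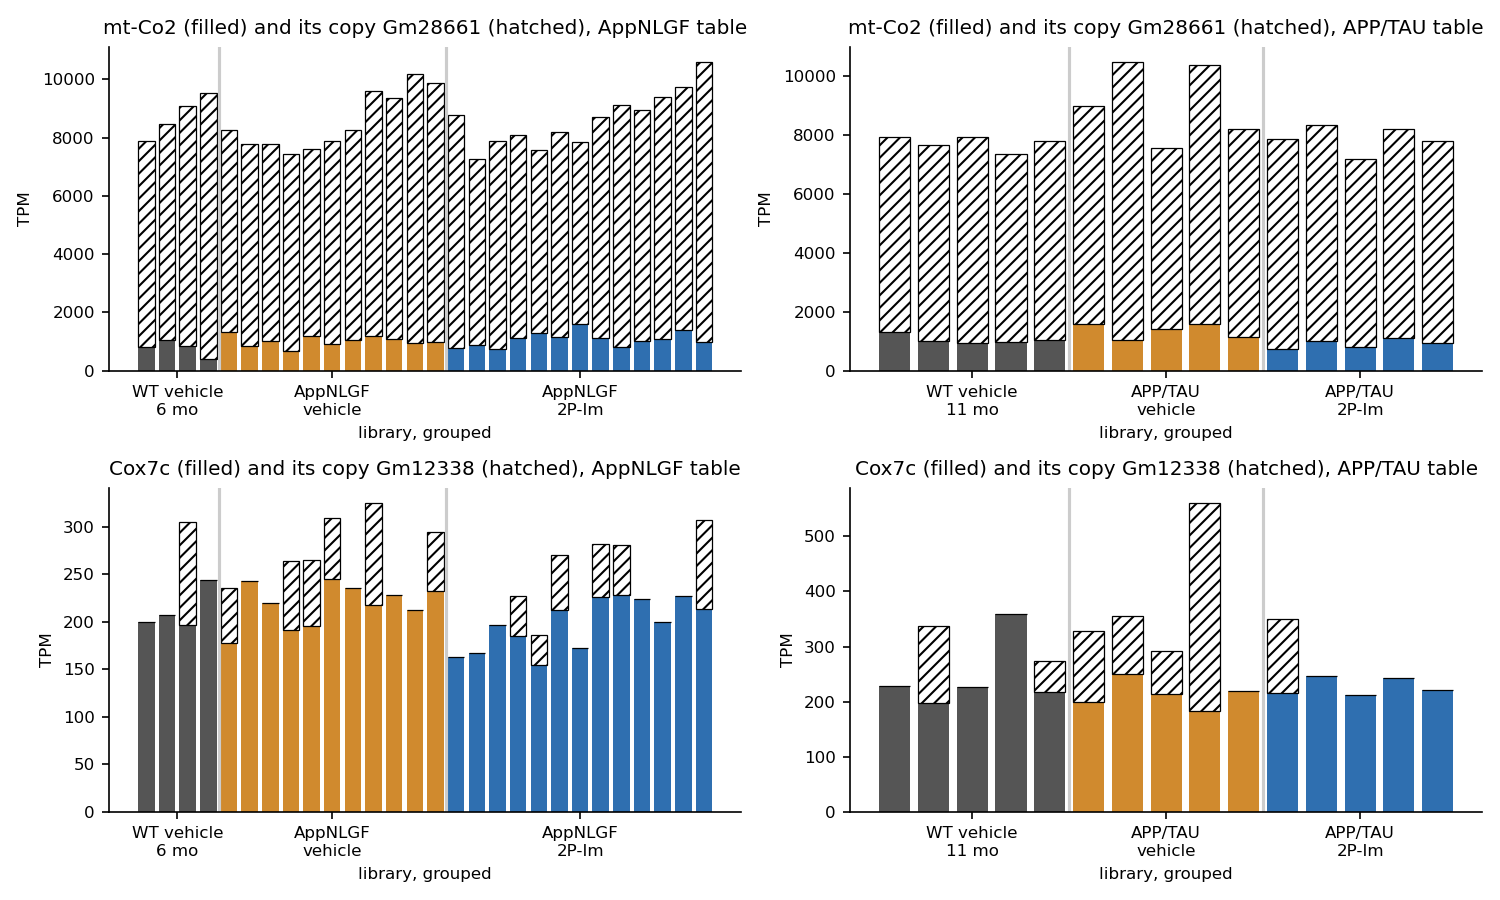
Bars give the TPM of each library, on a linear axis from 0, for mt-Co2 (filled) stacked with its copy Gm28661 (hatched) and for Cox7c stacked with its copy Gm12338, by group in both tables. The copy holds most of the mt-Co2 bar in each library, while Gm12338 is listed at 0 in some libraries and reaches 377 TPM in 1 APP/TAU vehicle library.

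Both tables hold TPM, which are scaled to a fixed total in each library and keep no depth, so the reads behind a value are unknown. One RNA, the gene row ENSMUSG00000118866, took 15.5 to 40.0% of TPM per library, and its share differed between groups. In the APP/TAU table it was 24.9 to 34.5% in wild-type, 15.5 to 29.1% in vehicle and 27.9 to 31.2% in 2P-Im libraries; in the AppNLGF table it was 30.7 to 33.7, 29.1 to 38.0 and 28.3 to 40.0%. Each comparison is therefore given on the deposited TPM and after median-ratio scaling. This divides a library by the median, over the tested genes detected in every library, of its ratio to their geometric means. Libraries more than 5 percentage points from their table's median share stood apart: AppNLGF vehicle library 4, AppNLGF 2P-Im libraries 1, 2, 5 and 7, APP/TAU wild-type library 2, and APP/TAU vehicle libraries 1, 2 and 4. The marker levels of brain cells were those of brain tissue, but markers of brain regions varied. Summed choroid plexus markers ran from 7.05 to 687 TPM over AppNLGF vehicle libraries and from 9.18 to 617 TPM with 2P-Im. Summed cerebellar markers had group medians of 67.3 to 76.6 TPM among AppNLGF and 639 to 742 TPM among APP/TAU libraries. Striatal markers went the other way, with group medians of 599 to 754 TPM and 129 to 158 TPM. The 2 tables were therefore compared only through effects measured within each. In bulk tissue, fewer cells of a type and less RNA per cell cannot be told apart.

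Without copies added, the mitochondrial-encoded members had higher mean TPM than every nuclear member in each group, by the narrowest margin for mt-Co2. In 6-month wild-type library 4, mt-Co2 (410 TPM) lay below Cox8a (619 TPM) and Cox4i1 (471 TPM). On the TPM scale, which divides by transcript length, mt-Co1, the catalytic subunit of complex IV, was the highest member, at 10425 ± 137 TPM (SD, n = 4) in 6-month wild-type and 11382 ± 2097 TPM (SD, n = 5) in 11-month wild-type libraries. mt-Atp6, the proton channel subunit of the ATP synthase, followed at 7245 and 6284 TPM in the same groups, then mt-Co3 at 4579 and 4544 TPM. mt-Cytb, the ubiquinone-oxidizing cytochrome b of complex III, stood at 2459 and 2202 TPM, and mt-Atp8, an accessory subunit of the ATP synthase, at 2005 and 1424 TPM. The lowest mitochondrial mean was that of mt-Co2, at 776 and 1059 TPM without its copy. With Gm28661 added it was 8743 and 7755 TPM. Likewise mt-Co3 was at 10356 and 10176 TPM with Gm28437 added, and mt-Atp6 at 7256 and 6310 TPM with Gm10925 added. In these sums mt-Co3 and mt-Co2 were above mt-Atp6, so the order given here depends on the split. All 31 members together took 2.86 to 3.75% of TPM per AppNLGF library and 2.74 to 4.03% per APP/TAU library.

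Among nuclear members the highest means were in complex IV. Cox8a, a small structural subunit of complex IV, led with 595 and 562 TPM in the wild-type groups, and Cox4i1, a regulatory subunit that binds ATP, had 445 and 446 TPM. The SD of Cox8a was 27.5 TPM (n = 4) and 114 TPM (n = 5), so Cox8a and Cox4i1 overlap within their spread in the older wild-type group, where Cox8a ran from 435 to 736 TPM and Cox4i1 from 387 to 579 TPM. Sdha, the flavoprotein of complex II, had 103 and 124 TPM, and Uqcrc1, a core subunit of complex III, 98.4 and 109 TPM. The lowest member by its own row was Cycs, at 23.6 ± 0.583 TPM (SD, n = 4) and 24.9 ± 4.26 TPM (SD, n = 5). Its copy Gm10053, which differed at 1 of 946 aligned bases, averaged 38.7 and 41.4 TPM in these groups. The sums of Cycs and Gm10053 averaged 62.3 and 66.3 TPM, above every Sdhd value there (35.0 to 37.3 and 39.5 to 50.6 TPM). The rank of Cycs thus depends on the split between these rows. Subunits that meet in one complex thus differed in transcript level by more than an order of magnitude, with mt-Co1 far above Cox8a.

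**Figure D2:**
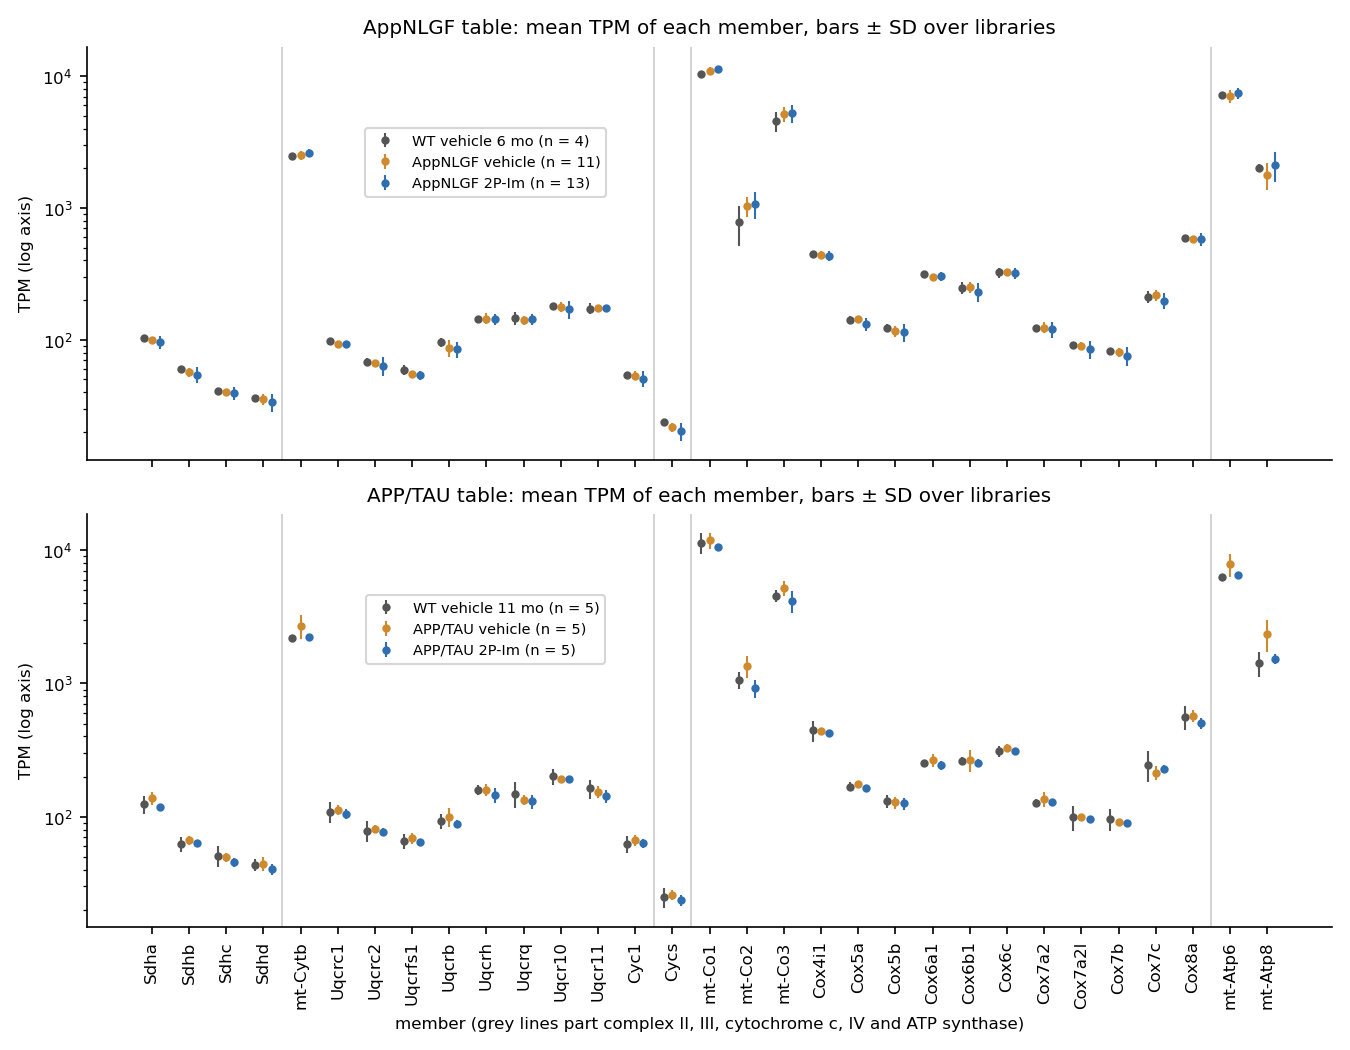
Points give the mean TPM with SD of each of the 31 members on a log axis, one panel per table with the 3 groups of each side by side, and grey lines part the complexes. The 6 mitochondrial-encoded members lie above all nuclear members, Cox8a is the highest nuclear one and Cycs the lowest, and group means of one member lie close together. Copies are not added to these values.

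With the 3 groups as the only terms in the fit, no member was called in any of the 6 comparisons within a table, with either scaling (limma, Benjamini-Hochberg adjusted p of at least 0.05 for each). Few genes were called at all. In the AppNLGF table vehicle libraries against wild type gave 0.221% of genes higher and 0.0596% lower, 2P-Im against vehicle 0.0477% and 0.00596%, and 2P-Im against wild type 0.244% and 0.0179%. In the APP/TAU table the shares were 0.0227% higher and 0% lower for vehicle against wild type, 0% and 0% for 2P-Im against vehicle, and 0.0227% and 0% for 2P-Im against wild type. Beside those 0 calls for 2P-Im against vehicle in the APP/TAU table, limma gave 77 genes higher (0.438%) and 4642 lower (26.4%) at an unadjusted p under 0.05. After median-ratio scaling the shares higher and lower were 0.554% and 0.137%, 0.244% and 0.0417%, and 0.65% and 0.0656% in the AppNLGF table, and 0.0227% and 0.00568%, 0.0114% and 0%, and 0.0284% and 0% in the APP/TAU table. A count of 0 members is thus near the background in each comparison, and what follows describes sizes and directions. Comparisons within a table share libraries: vehicle against wild type and 2P-Im against vehicle use the same vehicle libraries with opposite signs, so opposite values in the pair are no independent finding.

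In the APP/TAU table the mitochondrial members had higher deposited TPM in the vehicle group than in the other groups. mt-Atp8 was at 1694, 1485, 1427, 908 and 1606 TPM in the wild-type libraries, at 2403, 3216, 1533, 2613 and 1983 TPM in the vehicle libraries, and at 1605, 1586, 1398, 1664 and 1401 TPM in the 2P-Im libraries. Of the vehicle libraries, 4 lay above every library of the other groups and library 3 lay among them. The log2 difference of vehicle from wild type was 0.71 ± 0.18 (SE; limma adjusted p = 0.121), and that of 2P-Im from vehicle was -0.58 ± 0.18 (adjusted p = 0.167). After median-ratio scaling these became 0.50 (adjusted p = 0.266) and -0.35 (adjusted p = 0.611).

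mt-Co2 was at 1323, 1005, 953, 965 and 1046 TPM in wild type, at 1594, 1039, 1399.9, 1600.5 and 1141 TPM with vehicle, and at 733, 992, 813, 1094 and 957 TPM with 2P-Im. Vehicle libraries 1, 3 and 4 were above all others, and the groups overlapped through vehicle libraries 2 and 5. The log2 difference was 0.34 ± 0.14 for vehicle from wild type (adjusted p = 0.177) and -0.55 ± 0.14 for 2P-Im from vehicle (adjusted p = 0.167). Adding Gm28661, whose sequence is the same, brought these to 0.22 (adjusted p = 0.179) and -0.20 (adjusted p = 0.181), and with median-ratio scaling to 0.02 and 0.02. The sum also varied less among wild-type libraries than mt-Co2 alone, with a coefficient of variation of 3.10% against 14.4%. In the vehicle group these were 14.2% and 19.0%.

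The other mitochondrial members had the same signs on the deposited scale. mt-Cytb was at 2234, 2014, 2213, 2246 and 2303 TPM in wild type, at 2685, 3233, 2068, 3269 and 2226 TPM with vehicle and at 2192, 2450, 2077, 2263 and 2112 TPM with 2P-Im. Its vehicle libraries 1, 2 and 4 were the 3 highest of the table, and these are the libraries with the lowest share of the most abundant RNA (21.2, 15.8 and 15.5%). The log2 difference was 0.27 ± 0.12 from wild type (adjusted p = 0.190), and 0.06 after median-ratio scaling. mt-Atp6 followed the same libraries, with 7761, 8834 and 9930 TPM in vehicle libraries 1, 2 and 4, 6119 and 6653 TPM in vehicle libraries 3 and 5, and 6054 to 6470 TPM in wild type. Its difference was 0.30 ± 0.11 (adjusted p = 0.156) on the deposited scale and 0.09 after median-ratio scaling. mt-Co3 differed by -0.33 ± 0.12 between 2P-Im and vehicle (adjusted p = 0.167), and by -0.13 with its copy Gm28437 added. mt-Co1 differed by 0.06 ± 0.12 and -0.16 in the pair of comparisons, with 1 wild-type library at 15076 TPM and the other wild-type libraries at 9876 to 10892 TPM. Without that library the first was 0.17. With its copy Gm29216 added, which averaged 5144 TPM in this table and differed from mt-Co1 at 6 of 492 aligned bases, the differences were 0.14 ± 0.11 (adjusted p = 0.396) and -0.21 ± 0.11 (adjusted p = 0.212).

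Counted together, 6 of 6 mitochondrial members had deposited values above wild type in the vehicle group, with a median log2 difference of 0.28, and 4 of 6 had an unadjusted p under 0.05. Over all genes tested, 89.9% were above 0 in that comparison, with a median of 0.18, and 23.4% were higher at that p. The count of 4 was 1 without vehicle library 4 (median 0.20) and 2 without vehicle library 1 or wild-type library 3. For 2P-Im against vehicle, 6 of 6 were below 0, with a median of -0.29 beside -0.19 for all genes and 90.1% of genes below 0, and 5 of 6 had an unadjusted p under 0.05, where 26.4% of genes did. That count was 3 without vehicle library 1, 2 or 4 and without 2P-Im library 1, 3, 4 or 5. After median-ratio scaling 4 of 6 were above wild type (median 0.08; 49.1% of all genes above), and 5 of 6 were below vehicle with 2P-Im (median -0.07; 48.9% of all genes below). With APP/TAU wild-type library 2 and vehicle libraries 1, 2 and 4 left out, 4 of 6 deposited values were above wild type (median 0.06) and 3 of 6 were below vehicle with 2P-Im (median -0.09). The part of the most abundant RNA in these differences was not tested.

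The nuclear members differed in direction between the scalings. On deposited TPM, 16 of 25 were above wild type in the APP/TAU vehicle group and 9 below, with a median of 0.05 against 0.18 for all genes, of which 89.9% were above and 9.92% below. Without wild-type library 2 that count was 11 of 25 above (median -0.02), without wild-type library 4 it was 23 of 25 (median 0.11), and without vehicle library 2 it was 14 of 25 (median 0.00172). After median-ratio scaling all 25 were below wild type, with a median log2 difference of -0.16 and a range of -0.38 to -0.05, beside 50.7% of all genes below 0. Of the 25, 17 had an unadjusted p under 0.05 in the lower direction, where 7.13% of all genes did, and 0 of 25 passed the adjusted threshold. By complex, 4 of 4 complex II genes (median -0.14), 9 of 9 nuclear complex III genes (median -0.15) and 11 of 11 nuclear complex IV genes (median -0.18) were below 0. These genes are coexpressed in tissue and their values come from the same 10 libraries, so the 25 members are not 25 independent measurements.

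In complex II, Sdhc, which anchors the complex in the membrane, was at 48.6, 51.8, 54.0, 57.1 and 53.1 median-ratio scaled TPM in wild type and at 46.3, 41.8, 48.5, 43.3 and 45.8 with vehicle. All vehicle libraries lay below all wild-type libraries, the closest by less than 0.1 TPM. The log2 difference was -0.22 ± 0.05 (limma adjusted p = 0.172; unadjusted p = 0.000312). Sdhd, the other membrane anchor, had no overlap either, with 42.5 to 48.7 scaled TPM in wild type and 38.7 to 41.8 with vehicle, a difference of -0.18 ± 0.05 (adjusted p = 0.172). Sdhb, the iron-sulfur subunit, had the smallest p of complex II for 2P-Im against vehicle, from 62.9, 55.1, 64.0, 58.3 and 61.7 scaled TPM to 66.5, 66.1, 67.0, 64.0 and 74.7. The highest vehicle library reached the lowest treated one, and the difference was 0.16 ± 0.06 (adjusted p = 0.489). Sdha, which holds the flavin, was nearer to 0. Its scaled difference was -0.05 ± 0.05, and on deposited TPM it was 0.16 ± 0.10 (adjusted p = 0.304), from 113, 111, 120, 157 and 116 TPM in wild type to 142, 154, 118, 146 and 126 TPM with vehicle.

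In complex III, Uqcrq, a small subunit beside cytochrome b, was at 141, 158, 157, 178 and 135 scaled TPM in wild type and at 129, 117, 125, 107 and 130 with vehicle. These groups did not overlap, and the log2 difference was -0.33 ± 0.08 (adjusted p = 0.172). Uqcr10, another small subunit, was at 181, 218, 222, 213 and 213 scaled TPM in wild type, at 171, 163, 193, 152 and 187 with vehicle and at 199, 196, 201, 200.1 and 213 with 2P-Im. Its vehicle libraries overlapped those of wild type through wild-type library 1, and lay below all 2P-Im libraries. The differences were -0.27 ± 0.06 (adjusted p = 0.172) and 0.22 ± 0.06 (adjusted p = 0.460). Uqcrc1, one of the core proteins, had -0.15 ± 0.06 (adjusted p = 0.267) and 0.12 ± 0.06 (adjusted p = 0.565). Cycs, the mobile carrier between complexes III and IV, had -0.13 from wild type (adjusted p = 0.300).

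In complex IV, Cox7c was at 235, 244, 245, 311 and 227 scaled TPM in wild type, at 176, 197, 219, 151 and 225 with vehicle, and at 232, 246, 240, 239 and 245 with 2P-Im. The vehicle libraries lay below all libraries of both other groups. The log2 differences were -0.38 ± 0.10 (adjusted p = 0.172) and 0.32 ± 0.10 (adjusted p = 0.475). Its copy Gm12338 had the opposite order: it was listed at 0 in 3 of 5 wild-type, 1 of 5 vehicle and 4 of 5 2P-Im libraries, and averaged 39.4, 137 and 26.9 TPM. For the sum of Cox7c and Gm12338 the scaled differences were 0.05 ± 0.19 (adjusted p = 0.94) and -0.19 (adjusted p = 0.81), so the lower Cox7c value in the vehicle group was not present in the sum. Cox7b, a small X-linked subunit, differed by -0.26 ± 0.07 from wild type (adjusted p = 0.189). Cox4i1 differed by -0.22 ± 0.08 from wild type (adjusted p = 0.254) and by 0.18 ± 0.08 with 2P-Im (adjusted p = 0.556). On deposited TPM Cox4i1 differed by -0.01 ± 0.10, with 398, 387, 460, 579 and 404 TPM in wild type and 444, 460, 430, 415 and 443 TPM with vehicle.

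For 2P-Im against vehicle, scaled values of all 25 nuclear members were above 0 (51% of all genes), with a median of 0.14, a range of 0.02 to 0.32 and 15 of 25 at an unadjusted p under 0.05, where 4.66% of all genes were. On deposited TPM 24 of 25 were below 0 (median -0.08; 90.1% of all genes below). Against wild type the scaled values of the 2P-Im group were mixed, with 20 of 25 below 0 (49.2% of all genes) and a median of -0.04. In scaled values the groups did not overlap for 4 of 25 nuclear members below wild type (Sdhc, Sdhd, Uqcrq, Cox7c; 1.03% of all genes) and 2 of 25 above vehicle with 2P-Im (Uqcr10 and Cox7c; 0.841% of all genes).

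These counts rest partly on the libraries that stood apart. With wild-type library 2 and vehicle libraries 1, 2 and 4 left out, which leaves 2 vehicle libraries, 22 of 25 nuclear members were below wild type after scaling (3 at an unadjusted p under 0.05, median -0.07), and 18 of 25 were above vehicle with 2P-Im (1 at an unadjusted p under 0.05, median 0.03). Leaving out 1 library at a time kept 25 of 25 below wild type in every fit, with 11 to 20 at an unadjusted p under 0.05. The lowest count came without wild-type library 2 or without vehicle library 4. For 2P-Im against vehicle 24 or 25 of 25 stayed above 0, with 5 to 17 at an unadjusted p under 0.05. That count was 5 without vehicle library 2 or 2P-Im library 5, 7 without vehicle library 1 or 4, 8 without 2P-Im library 1, and 9 without 2P-Im library 2 or 3.

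Other scalings gave the same side of 0 for most nuclear members. Quantile normalization put 24 of 25 below wild type (11 at an unadjusted p under 0.05, median -0.12) and 23 of 25 above vehicle with 2P-Im (10, median 0.12). Rescaling to a total without mitochondrial-encoded genes and the 20 most abundant genes put 25 of 25 below wild type (14, median -0.13) and 24 of 25 above vehicle (7, median 0.12). On deposited TPM, 16 of 25 were above wild type, a count that 1 library turns as given above, and 24 of 25 were below vehicle with 2P-Im. Counts by sign or unadjusted p under quantile normalization, rescaling, a block or with libraries left out are given without the share of all genes. They are therefore not set against the background.

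**Figure D3:**
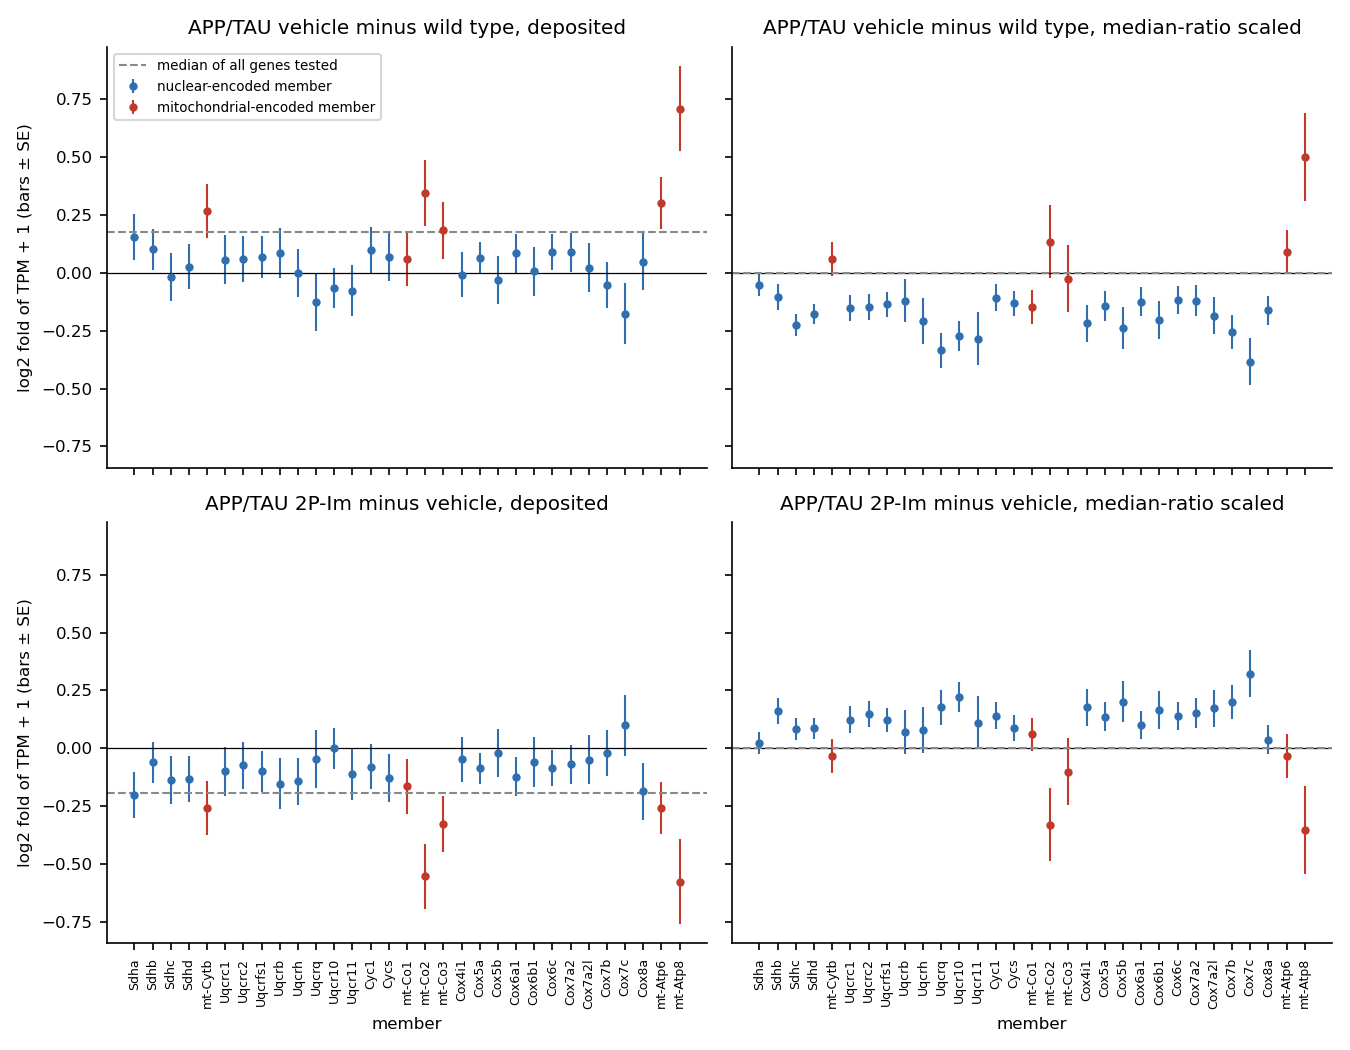
Points give the log2 difference with SE of each member in the APP/TAU table, for vehicle minus wild type and 2P-Im minus vehicle, on deposited and median-ratio scaled TPM, with nuclear members in blue, mitochondrial members in red and a dashed line at the median of all tested genes. After scaling all 25 nuclear members lie below 0 in the first comparison and above 0 in the second, which shares the vehicle libraries, and on deposited TPM mt-Atp8 is highest in the first at 0.71.

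In the AppNLGF table the members differed little between groups. mt-Co2 had the largest difference from wild type. It was at 814, 1042, 838 and 410 TPM in the 4 wild-type libraries, from 691 through a median of 1036 to 1316 TPM in the vehicle libraries, and from 754 through 1078 to 1588 TPM in the 2P-Im libraries. One wild-type library lay far below the rest and the others overlapped both knock-in groups. The log2 differences from wild type were 0.46 ± 0.19 for vehicle (adjusted p = 0.981) and 0.52 ± 0.19 for 2P-Im (adjusted p = 0.520), and without wild-type library 4, the low one, they were 0.18 and 0.24. With Gm28661 added they were -0.04 and -0.02, and the coefficient of variation in wild type was 8.32% for the sum against 34.1% for mt-Co2 alone.

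The remaining mitochondrial members overlapped between all 3 AppNLGF groups. mt-Co1 ran from 10266 to 10599 TPM in wild type, from 10060 through 10879 to 12457 TPM with vehicle and from 10096 through 11182 to 12468 TPM with 2P-Im. After scaling it differed by 0.18 ± 0.06 between 2P-Im and wild type (adjusted p = 0.195). mt-Atp8 was at 2057, 2100, 1803 and 2058 TPM in wild type, ran from 1361 through 1595 to 2484 TPM with vehicle and from 1546 through 2010 to 3371 TPM with 2P-Im, and differed by 0.24 ± 0.12 between 2P-Im and vehicle (adjusted p = 0.778). mt-Cytb differed by 0.07 ± 0.05 in that comparison (adjusted p = 0.785), from a median of 2389 TPM to 2604 TPM. mt-Atp6 had a median of 6840 TPM with vehicle and 7275 TPM with 2P-Im, and wild-type libraries at 6770, 7096, 7478 and 7636 TPM. All 6 mitochondrial members were above 0 for 2P-Im against vehicle (median 0.06, where 33.4% of all genes were above 0), and 4 of 6 were without vehicle library 4 and 2P-Im libraries 1, 2, 5 and 7.

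Among the nuclear members of the AppNLGF table, Cox5a, a complex IV subunit on the matrix side, had the smallest p of its complex for 2P-Im against vehicle. It was at 138, 151, 149 and 129 TPM in wild type, from 135 through 144 to 150 TPM with vehicle and from 104 through 139 to 154 TPM with 2P-Im. The treated range held the vehicle range. The difference was -0.13 ± 0.05 (unadjusted p = 0.0229, adjusted p = 0.769) on deposited TPM and -0.09 ± 0.03 (adjusted p = 0.233) after scaling. Cycs was at 23.4, 23.6, 24.4 and 23.1 TPM in wild type, from 17.7 through 21.6 to 24.6 TPM with vehicle and from 15.0 through 21.5 to 25.7 TPM with 2P-Im. For 2P-Im against wild type it differed by -0.23 ± 0.10 (adjusted p = 0.619), and by -0.16 ± 0.05 (adjusted p = 0.161) after scaling. No wild-type library of this table has a replicate number above 5. When the fit also held whether a number was above 5, Cycs differed by -0.36 (limma adjusted p = 0.00792) on deposited TPM for 2P-Im against wild type. That fit called 17 of 31 members lower, Sdha, Uqcrfs1 and Cox5a among them, and 5067 of all genes lower, but 0 members lower after scaling. Uqcrfs1, the Rieske iron-sulfur protein of complex III, was at 62.8, 64.6, 57.6 and 52.8 TPM in wild type, with medians of 55.1 and 54.6 TPM in the knock-in groups. Its difference was -0.14 ± 0.06 for 2P-Im against wild type (adjusted p = 0.628). Sdha averaged 100.2 TPM with vehicle and 96.1 TPM with 2P-Im, a log2 difference of -0.07 ± 0.05 (adjusted p = 0.793), while its medians, 99.4 and 102 TPM, had the opposite order.

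Counted together, 19 of 25 nuclear members of the AppNLGF table were below 0 on deposited TPM for vehicle against wild type, where 61.5% of all genes were. For 2P-Im against vehicle 22 of 25 were below 0, where 66.5% of all genes were (median -0.05). After scaling the count for 2P-Im against vehicle was 12 above and 13 below, where 49% and 51% of all genes were. Without vehicle library 4 and 2P-Im libraries 1, 2, 5 and 7, 21 of 25 had deposited values above vehicle with 2P-Im (median 0.02), so the direction of that comparison on deposited TPM turned with 5 libraries. Those treated libraries were among the ones with the highest share of the most abundant RNA, at 37.2 to 40.0%. For 2P-Im against wild type, 24 of 25 nuclear members were below 0 on deposited TPM (median -0.11; 69.9% of all genes below) and 6 of 6 mitochondrial members above (median 0.10; 29.9% of all genes above). Without the same 5 libraries 12 of 25 nuclear members were below wild type.

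The balance between the genomes was measured in each library as the mean log2 value of the 6 mitochondrial members minus that of the 25 nuclear members, which scaling of the whole library barely moves. In the APP/TAU table it was 4.82, 4.79, 4.61, 4.26 and 4.76 in wild type, 4.98, 4.96, 4.75, 5.14 and 4.85 with vehicle, and 4.65, 4.71, 4.68, 4.67 and 4.61 with 2P-Im. All vehicle libraries were above all 2P-Im libraries and overlapped wild type through vehicle library 3. Vehicle differed from wild type by 0.29 and 2P-Im from vehicle by -0.27, beside a pooled SD of 0.161. In the AppNLGF table the group means were 4.78 ± 0.09 (SD, n = 4), 4.90 ± 0.15 (SD, n = 11) and 5.03 ± 0.17 (SD, n = 13), so that 2P-Im exceeded vehicle by 0.14 with a pooled SD of 0.154. The sign of 2P-Im against vehicle was thus opposite in the 2 tables, and the groups overlapped in the AppNLGF table.

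The balance was also computed with other handling of the copies and of the libraries that stood apart. With copy rows added to mt-Co2, mt-Co3 and mt-Atp6, the APP/TAU differences were 0.25 and -0.18. The AppNLGF difference of vehicle from wild type went from 0.12 to 0.02, and that of 2P-Im from vehicle was 0.13, close to its value without copies. Without the libraries that stood apart, the APP/TAU differences were 0.19 and -0.14, and the AppNLGF difference of 2P-Im from vehicle was 0.03. Leaving out 1 library at a time gave 0.19 to 0.34 and -0.32 to -0.22 in the APP/TAU table. The log2 ratio of mt-Atp8 to mt-Atp6, whose messages overlap, had group means of -2.17, -1.76 and -2.08 in wild-type, vehicle and 2P-Im libraries of the APP/TAU table, with SDs of 0.32, 0.21 and 0.08. In the AppNLGF table these means were -1.85, -2.01 and -1.84. The mean of the vehicle group was thus the highest in the first table and the lowest in the second, but the groups overlapped in both. APP/TAU wild-type library 4, at -2.74, lay below the others of its group (-2.12 to -1.92).

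**Figure D4:**
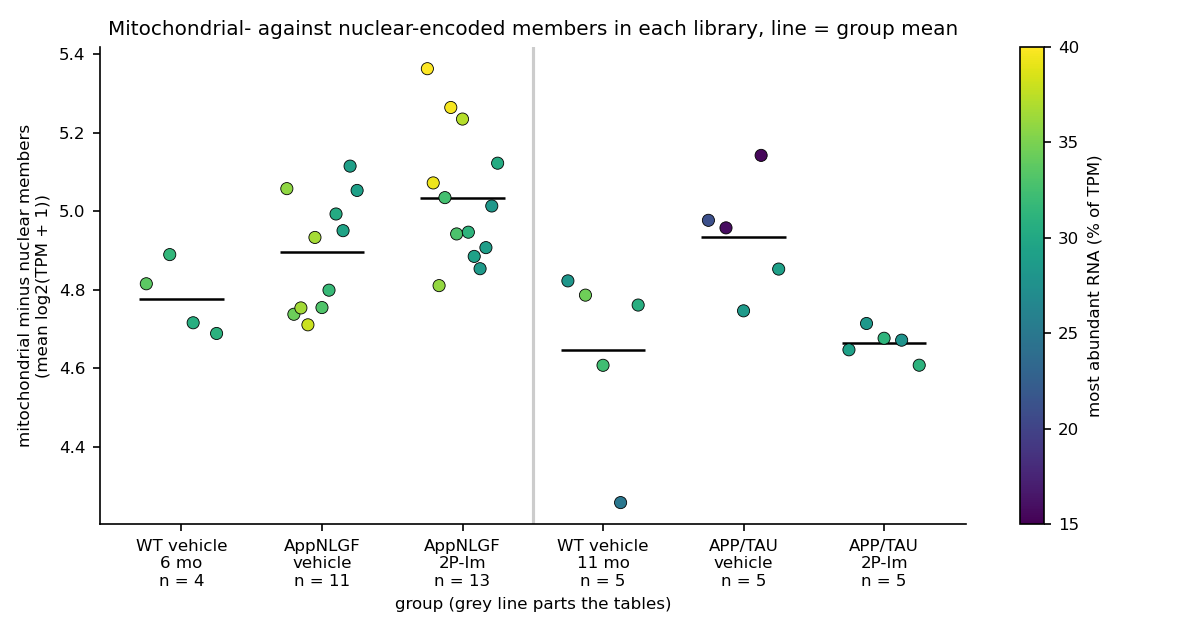
Each point is a library's mean log2 value of the 6 mitochondrial members minus that of the 25 nuclear members, by group in both tables, with a line at the group mean and colour for the percent of TPM taken by the most abundant RNA. The 5 APP/TAU vehicle libraries lie above the 5 2P-Im libraries, and the highest AppNLGF value, 5.36, belongs to a 2P-Im library with a high share of that RNA.

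The difference between the models was tested directly, as the effect in the APP/TAU table minus that in the AppNLGF table, over 16418 genes tested in both. The models also differ in age, length of treatment and the levels of cerebellar and striatal markers, which cannot be told apart from the genotype here. On deposited TPM 0 of 31 members were called for the genotype effect (0.177% of all genes) or the treatment effect (0.134%). The smallest adjusted p was 0.105, for mt-Atp8, with differences of 0.91 ± 0.26 and -0.82. After scaling 1 of 31 was called for the genotype effect, Cox7c at -0.45 ± 0.11 (limma adjusted p = 0.042), where 0.53% of all genes were called, and 0 of 31 for the treatment effect (0.0731%; smallest adjusted p = 0.0754, Cox7c at 0.43). The Cox7c call did not hold on deposited TPM (-0.21, adjusted p = 0.412), with Gm12338 added (-0.10, adjusted p = 0.921) or without the libraries that stood apart (-0.26, adjusted p = 0.792). Nor did the call hold with transcript rows added to their genes in the AppNLGF table alone (-0.46, adjusted p = 0.0527). It held in 28 of 43 fits that left out 1 library, with adjusted p from 0.0134 to 0.129.

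Other genes of the same machinery were set beside the members, and none of these lists had a gene called in any comparison with either scaling. The 7 mitochondrial complex I genes had a median of 0.42 for APP/TAU vehicle against wild type on deposited TPM and 0.22 after scaling, and the 2 mitochondrial ribosomal RNAs 0.47 and 0.26. The most marked gene by p was mt-Nd6, the complex I subunit encoded on the other mitochondrial strand, at 0.42 ± 0.11 (adjusted p = 0.121) and at -0.51 ± 0.11 for 2P-Im against vehicle (adjusted p = 0.167). The nuclear ATP synthase genes had the pattern of the nuclear members after scaling, with 16 of 17 below wild type (median -0.16, 11 at an unadjusted p under 0.05) and 17 of 17 above vehicle with 2P-Im (median 0.15). Of all genes, 50.7% were below wild type there, 7.13% were lower at that p, and 51% were above vehicle with 2P-Im. Ndufa4, also a subunit of complex IV although named for complex I, had -0.21 ± 0.06 (adjusted p = 0.194) and 0.20 ± 0.06 (adjusted p = 0.475). Atp5g2, which encodes the rotor ring subunit c, had the widest differences, at -0.92 ± 0.28 (adjusted p = 0.125) and 0.95 ± 0.28 (adjusted p = 0.167) on deposited TPM.

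Genes that build or maintain the chain were closer to 0. The 35 assembly factors had scaled medians of -0.10 and 0.09 in those comparisons, with 30 of 35 below wild type, where 50.7% of all genes were. The 15 genes used as a measure of mitochondrial mass had -0.12 (15 of 15 below 0, 8 at an unadjusted p under 0.05, where 7.13% of all genes were) and 0.07. Among them Vdac2, an outer membrane channel, had -0.19 ± 0.04 (adjusted p = 0.172). The 18 genes of mitochondrial transcription and translation had -0.06 and 0.03, and the 9 nuclear regulators 0.02 and -0.04. Nfe2l2, which encodes NRF2, the target of the compound, differed by -0.11 ± 0.07 for 2P-Im against vehicle in the AppNLGF table (adjusted p = 0.784) and by -0.18 ± 0.12 in the APP/TAU table (adjusted p = 0.286), both on deposited TPM. Among all genes tested, 66.5% (AppNLGF) and 90.1% (APP/TAU) were likewise below 0 for 2P-Im against vehicle on that scale. The sign of Nfe2l2 was thus that of most genes in each model. Transcript level is not the main point at which NRF2 is regulated, which is the stability of its protein.

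Markers of cell types differed with some of these groups. In the APP/TAU table the summed neuronal markers had medians of 2444, 2879 and 2368 TPM in wild-type, vehicle and 2P-Im libraries, the oligodendrocyte markers 2425, 3190 and 2747 TPM, and the astrocyte markers 886, 1026 and 880 TPM. The vehicle group was highest in each, as it was for the deposited values of the mitochondrial members. These sums are deposited TPM too. On that scale 89.9% of all genes tested were above wild type in the vehicle group, and 90.1% were below vehicle with 2P-Im. Red cell markers reached 473 TPM in a vehicle library, where wild-type libraries had 22.0 to 64.9 TPM. In the AppNLGF table microglial markers had medians of 149, 245 and 247 TPM, and 3 of 8 were called higher in vehicle than in wild-type libraries. Of all genes, 0.221% were called higher there on deposited TPM and 0.554% after scaling. Astrocyte markers had medians of 825, 986 and 978 TPM in that table and endothelial markers 48.9, 58.5 and 67.4 TPM. Neuronal markers had 2754, 2673 and 2653 TPM, and red cell markers 125, 40.3 and 46.3 TPM. No marker was at 0 in every library, and the part of cell makeup in the members' values was not tested.

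Promoters were searched because the scaled APP/TAU differences of the 25 nuclear members shared a sign. RefSeq (GRCm38.p6) held an entry for 18 of the 25, and the 250 bases before the start were read on both strands for a site of NRF1 (GCGC and GCGC parted by any 2 bases), a factor known to drive respiratory genes, for an ETS site (CCGGAAG) and for the antioxidant response element bound by NRF2 (TGACNNNGC). The NRF1 letters were found in 3 of 18 (16.7%), beside 5.09% of all 27025 promoters, and the ETS letters in 5 of 18 (27.8%), beside 7.05%. The antioxidant response element letters were found in 0 of 18, beside 10.1% of all promoters, which says only that they are not in these windows. The 3 promoters with NRF1 letters are shown over 100 bases each on the minus strand, with those letters in capitals.
Cox6a1 promoter, chr5:115349061-115349160: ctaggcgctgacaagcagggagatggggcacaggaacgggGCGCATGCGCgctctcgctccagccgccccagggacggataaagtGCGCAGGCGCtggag
Sdha promoter, chr13:74350279-74350378: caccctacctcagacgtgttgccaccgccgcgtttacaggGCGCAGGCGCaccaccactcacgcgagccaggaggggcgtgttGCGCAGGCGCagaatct
Sdhd promoter, chr9:50603869-50603968: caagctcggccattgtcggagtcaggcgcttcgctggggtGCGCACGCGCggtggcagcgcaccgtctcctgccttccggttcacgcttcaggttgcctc
ETS letters were in the windows of Cox6a1, Cox6b1, Sdhd, Uqcr11 and Uqcrh. The scaled differences between APP/TAU vehicle and wild type were -0.12 for Cox6a1, -0.05 for Sdha and -0.18 for Sdhd. No binding was measured in these samples, so a match is a description of letters.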

How the data were processed

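Total RNA labelled as brain was sequenced in 43 libraries, 28 of the AppNLGF and 15 of the APP/TAU experiment, with extraction by Sepasol and library preparation by the MGIEasy directional kit, per the labels' protocols. The authors deposited TPM per gene, estimated with Salmon on the GRCm38 (mm10) build, per the submitters' processing notes, with a version and an annotation release not given in the sources used here. Each table was normalized by itself, no columns were pooled, and TPM keep no depth. The AppNLGF table also lists 64708 transcript rows, 64 of them of 23 members, which were not added to gene rows; they held at most 51.5% of a member's TPM.

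Genes whose mean reached 1 TPM were tested on log2(TPM + 1) with limma 3.58.1 in R 4.3.3 (trended variance, 3 groups in 1 fit, two-sided), with Benjamini-Hochberg adjustment over all 16776 or 17592 genes and a threshold of 0.05. Differences are on that scale, which understates changes of low genes. The pseudocount, scaling, filter, samples and blocks were varied. The fits were tested on simulated data. Every member is listed by complex. A member was due to be named if called, with the smallest p of its complex, or in a fixed set (mt-Cytb, mt-Co1, mt-Atp6, Sdha, Uqcrc1, Cox4i1). Not each is given in full. For the AppNLGF table only wild-type values of Uqcrc1 and Cox4i1 are printed, and no difference of mt-Atp6. Of other lists up to 3 genes with the smallest p could be named, and Nfe2l2 was named for the compound. The members and lists were chosen with earlier results of these data known. Locations come from GENCODE M21, sequences of transcripts from the same build, and promoters from RefSeq; 51327 gene rows matched. Copies were found with BLAST+ 2.17.0.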

Additional observations from a re-analysis of the deposited data

Results flagged for a closer look

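Of 48 groups of values in which the highest or lowest library was compared with the rest, 6 held a library far from the others, and chance gives about 1 in 20. The AppNLGF vehicle and 2P-Im groups, of 11 and 13 libraries, were above the size limit of this rule and were not examined. In wild-type library 3 of the AppNLGF table mt-Atp8 was at 1803 TPM, with 2057 to 2100 TPM in the other 3. Wild-type library 4 of the APP/TAU table held 3 of the 6: mt-Co1 was at 15076 TPM (others 9876 to 10892), Sdha at 157 TPM (others 111 to 120) and the log2 ratio of mt-Atp8 to mt-Atp6 at -2.74 (others -2.12 to -1.92). In wild-type library 1 of that table mt-Co2 was at 1323 TPM (others 953 to 1046). In 2P-Im library 3 of that table Sdha was at 109 TPM (others 119 to 123).

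The genotype effect on Cox7c differed between the models by -0.45 after median-ratio scaling, by the test of the difference itself. It was not called with Gm12338 added (-0.10, limma adjusted p = 0.921) or on deposited TPM (-0.21, adjusted p = 0.412). The call held in 28 of 43 fits that left out 1 library.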

How the results depend on the processing

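No member was called within a table under the other pseudocount, filters, scalings or fits of 2 groups, nor without any single library; the exceptions concern 2P-Im against wild type in the AppNLGF table. There a replicate block called 8 members lower, with 3158 of all genes lower, and 0 members after median-ratio scaling. A term for replicate numbers 1 to 5 against the rest called 17 members lower, with 5067 of all genes lower; with scaling it called 1 higher (mt-Co1, 0.25, adjusted p = 0.0299) and 0 lower. All wild-type libraries of that table fall in numbers 1 to 5, so with the term they are set beside the level fitted for low-numbered 2P-Im libraries. Of those, libraries 1, 2 and 5 stood apart by their share of the most abundant RNA. The cause was not tested. The numbers did not pair the libraries: same-numbered deviations correlated at -0.079 to 0.118 over 19 pairs in the AppNLGF table and at -0.056 to 0.087 over 15 in the APP/TAU table. With the block, 17 nuclear members were below wild type and 11 above vehicle with 2P-Im at an unadjusted p under 0.05 in the scaled APP/TAU table. Quantile normalization gave a balance of mitochondrial over nuclear members of 0.0749 (log2) for AppNLGF 2P-Im against wild type, where the unaltered value was 0.257. The genotype difference between models had 1 member called after scaling (Cox7c) and 0 on deposited TPM. Fits with copies or transcript rows added and without the libraries that stood apart were chosen after seeing the data. Depth is unknown in TPM, so no counting error can be given.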
